A study of Arabidopsis thaliana and Arabidopsis lyrata subsp. lyrata and Arabidopsis halleri subsp. gemmifera with 10 samples.

Results

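The transcripts described here come from 35 genes of the chloroplast genome that encode parts of the photosynthetic membrane and its carbon-fixing enzyme. They are 15 genes of photosystem II (psb), 5 of photosystem I (psa), 6 of the cytochrome b6f complex (pet), 6 of the chloroplast ATP synthase (atp), rbcL for the large subunit of Rubisco, and ycf3 and ycf4 for photosystem I assembly. Members were chosen by symbol, and the brightest probe set was to stand for a gene with several. Each has 1 probe set, so no choice by signal arose, and the 35 probe sets stand among 22810 on the array and among 69 chloroplast-encoded genes with a named probe set. Leaf RNA from mature plants that had not yet flowered was hybridized to an Affymetrix expression array designed on A. thaliana, so RNA of the other species may bind less well where its sequence differs, which was not tested. The parental groups were Col plants of A. thaliana, the subspecies gemmifera of A. halleri and the subspecies lyrata of A. lyrata. The other groups were interspecific hybrids of A. thaliana with A. lyrata and of A. thaliana with A. halleri, here the lyrata hybrid and the halleri hybrid. Plants of all 5 groups grew at 22 C under fluorescent light in cycles of 16 h and 8 h, no treatment is named, and each group had 2 biological replicates with 1 array each. The labels do not say which species was the mother of a hybrid, nor the ploidy or age of the plants.

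Photosystem II splits water in the light and passes electrons through the cytochrome b6f complex to photosystem I, and the proton gradient this builds drives the ATP synthase. Each of these complexes is assembled from subunits of 2 genomes, with the reaction-centre proteins made in the chloroplast and many small and peripheral subunits imported after translation in the cytosol. Chloroplast genes are mostly transcribed in clusters and cut into smaller RNAs, and in Arabidopsis chloroplasts are usually inherited from the mother.

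Signals below are in arbitrary units, with all arrays brought to the same 2% trimmed mean (500), because 5 of the 10 deposited arrays were on other scales. Those 5 were A. thaliana replicate 2 and the arrays of A. lyrata and its hybrid. Each rescaled value is thus relative to the average signal of its array. Relative to leaf signal and to A. thaliana, the 18 spike-in controls were brighter by 3.64-fold for A. lyrata, 2.49-fold for A. halleri, 1.79-fold for the lyrata hybrid and 1.2-fold for the halleri hybrid. Counts after scaling to these controls, and after blocking on the class of deposited scale, therefore stand beside the main ones. Only A. thaliana has arrays in both classes, so the block takes its size from the gap between those 2 arrays. It moves comparisons across classes by all or part of this gap, changes only the spread of those within a class, and cannot test for an effect of scale. Scaling to the controls moved the median log2 difference of all probe sets from A. thaliana from 0.31 to -1.60 for A. lyrata, from 0.32 to -1.05 for A. halleri, from 0.10 to -0.76 for the lyrata hybrid and from 0.13 to -0.15 for the halleri hybrid. None of the 6 mesophyll, 6 flower or 5 root markers looked up had a named probe set, nor did any of 3 markers of senescing leaves, so the tissue label was not checked with them. Of 3 guard cell, 3 trichome and 4 vascular markers 1 each was measured. FAMA, which drives guard cell formation, was higher than in A. thaliana in all other groups by 1.2 to 1.66 (log2), TRY, a trichome regulator, was lower in A. lyrata (-1.76), and SWEET11, a sugar exporter of the phloem, was lower in A. halleri (-3.05). Their part in the results was not tested.

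On the trimmed-mean scale, chloroplast-encoded photosynthesis transcripts mostly gave their lowest signals in A. thaliana and their highest in A. lyrata and A. halleri. The lyrata hybrid was nearer to A. thaliana and the halleri hybrid in between. Centred on each gene's mean over the 10 arrays, the median log2 signal of the 35 genes was -0.95 and -0.94 in A. thaliana, -0.49 and -0.47 in the lyrata hybrid, 0.18 and 0.08 in the halleri hybrid, 0.58 and 0.59 in A. halleri, and 0.74 and 0.70 in A. lyrata. The 2 arrays of a group lay close together and no groups overlapped in this median. The same median over all 16656 probe sets tested ran only from -0.17 to 0.19. Scaled to the spike-ins, the median log2 difference of the 35 genes from A. thaliana was -0.12 in A. lyrata and 0.24 in A. halleri. It was -0.55 in the lyrata hybrid and 0.80 in the halleri hybrid, so the order of the groups depends on the scaling. The counts that follow are on the trimmed-mean scale. A. thaliana had the lowest mean log2 signal for 24 of the 35 genes, the lyrata hybrid for 7, and A. lyrata and A. halleri for 2 each. A. lyrata and A. halleri were each highest for 13 genes, the halleri hybrid for 8 and the lyrata hybrid for 1, psaJ. In leaf RNA the share of chloroplast-rich cells and the amount of these RNAs per cell cannot be told apart. Neither can be told from the average leaf signal of an array, to which each value is relative.

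**Figure D1:**
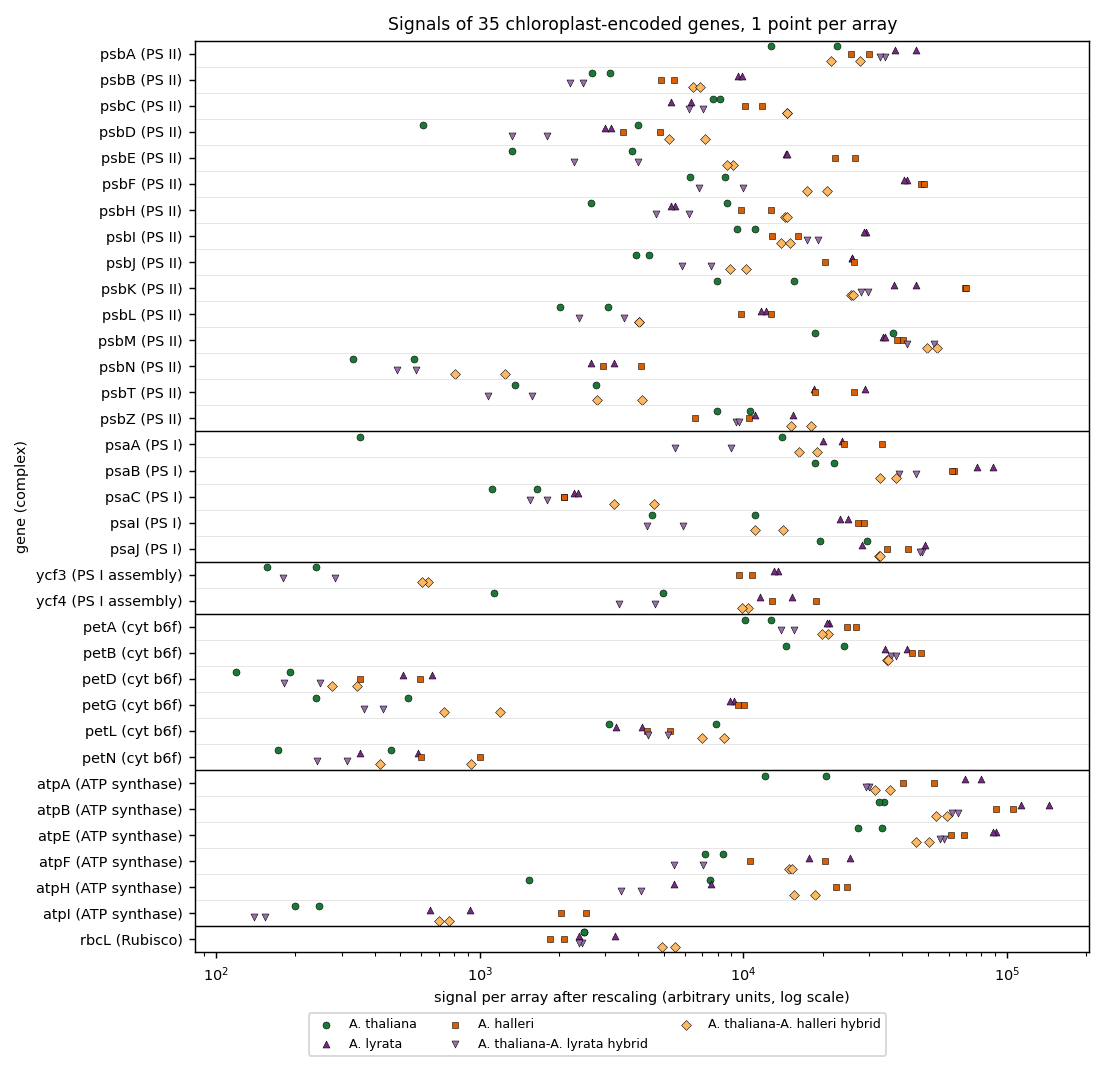
Signal of each of the 35 genes on each of the 10 arrays, on a log axis in arbitrary units, with 1 row per gene grouped by complex and 1 point per array, coloured by group. The points of ycf3 and petG in A. lyrata and A. halleri stand far to the right of those in A. thaliana and both hybrids, and psaA has 1 A. thaliana array at 352 and the other at 14067.

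Replicate arrays differed more in A. thaliana than elsewhere. Over the 35 genes the median absolute log2 difference between the 2 replicates was 0.68 for A. thaliana, 0.25 for A. lyrata and for A. halleri, 0.24 for the lyrata hybrid and 0.16 for the halleri hybrid. Over all probe sets tested it was 0.65 for A. thaliana and 0.30 to 0.40 for the others. More than 2-fold apart in A. thaliana were 11 of the 35 genes, of which psaA, psbD, atpH, ycf4, psbE and psbH were brighter in replicate 2 and petN, psaI, petL, petG and psbT in replicate 1. The largest gap was that of psaA, 40-fold. Elsewhere petN in the halleri hybrid was the only such case.

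Differences were tested with limma over all probe sets, and a gene is called where its Benjamini-Hochberg adjusted p is below 0.05. Fold differences come from the fitted log2(signal + 9.24), which understates those of low signals, and errors of log2 differences are SE. In A. lyrata 24 of the 35 genes were called higher than in A. thaliana and 0 lower, against 25.8% and 17.2% of all probe sets, and the median difference was 1.75 (log2) compared with 0.31 for all. In A. halleri 22 were higher and 0 lower, against 23.5% and 16.2%, with a median of 1.55 against 0.32 for all. Both comparisons use the same A. thaliana arrays. The calls fell on 20 genes in both species, on psbA, psbI, atpF and psaC in A. lyrata alone, and on atpH and psaA in A. halleri alone. Scaled to the spike-ins, A. lyrata had 4 genes higher and 10 lower than A. thaliana, against 2.52% and 62.5% of all probe sets. On that scale A. halleri had 10 higher and 6 lower, against 4.32% and 45.6%. Of the 24 genes higher in A. lyrata, petA, petB and psaC (3 genes) were called lower on that scale. Higher on that scale in both species were ycf3, petG, psbT and psbJ. With quantile normalization 15 genes were higher in each species, against 19.6% and 17.6% of all probe sets. Then 1 and 0 were lower, against 18.7% and 17.1%. Under both settings psaB, atpA, atpB, atpE, petA, petB, psbA, psbK and atpF were not called higher in A. lyrata. In A. halleri the same held for psaB, psaA, atpA, atpB, atpE, petA and petB. The class block sets A. lyrata against A. thaliana replicate 2 alone and A. halleri against replicate 1 alone. With it 25 and 24 genes were higher, against 24.2% and 20.7% of all probe sets. None were lower, against 18.2% and 14.6%.

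**Figure D2:**
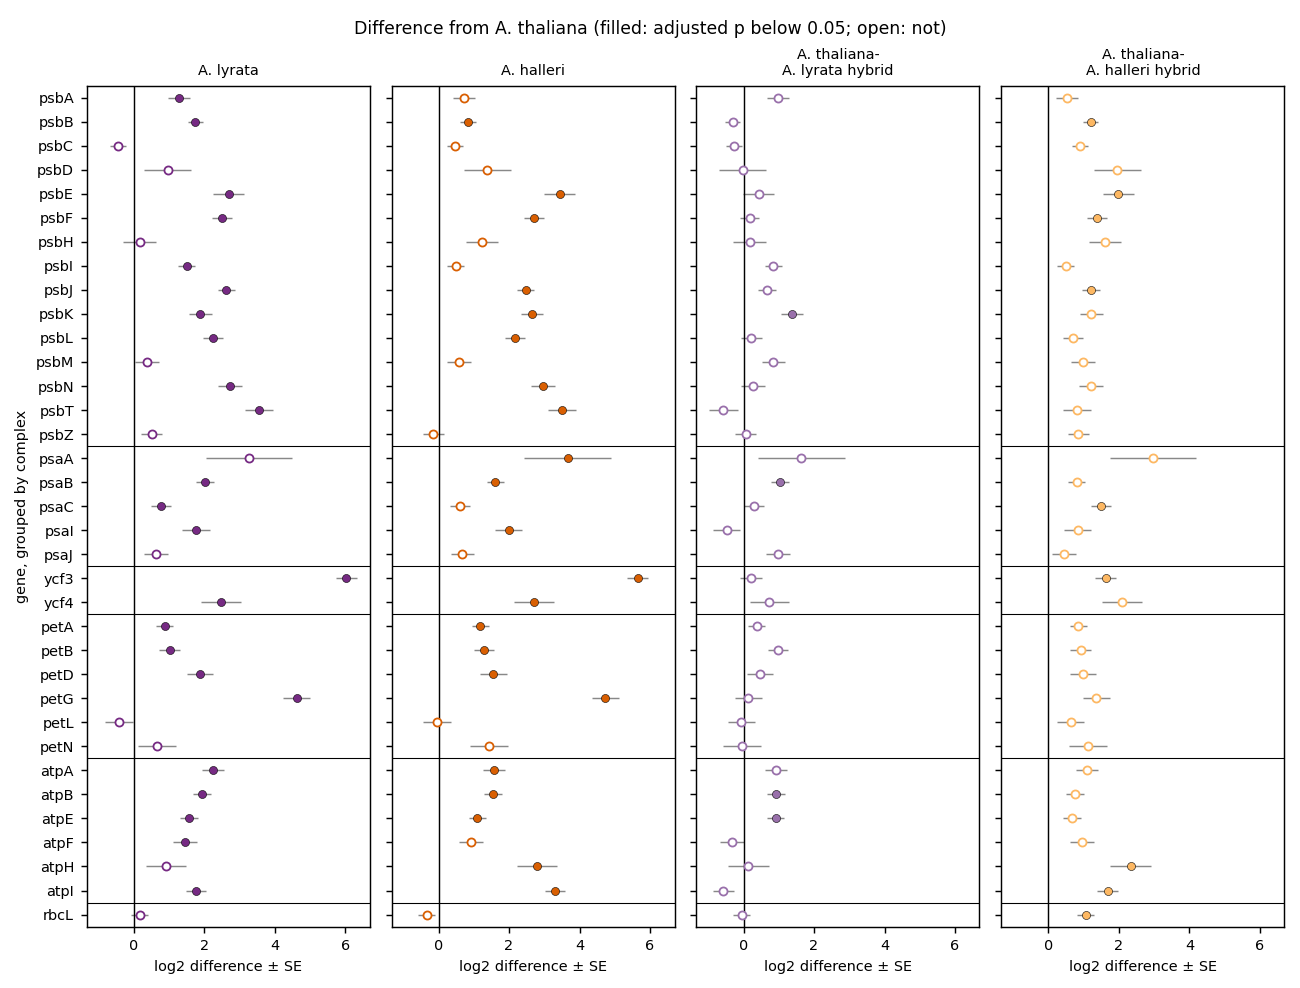
Log2 difference from A. thaliana for each gene with its SE, in 4 panels for A. lyrata, A. halleri and their hybrids with A. thaliana, with filled points for called genes. The 24 and 22 filled points of A. lyrata and A. halleri are all to the right of 0, and the lyrata hybrid has 4 filled points and the halleri hybrid 9.

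Among the reaction-centre and core antenna proteins of photosystem II, psbB and psbA differed between A. lyrata and A. thaliana and psbC and psbD did not pass. psbA encodes D1, the reaction-centre protein that is damaged by light and replaced, and gave 22623 and 12740 in A. thaliana, 37701 and 45201 in A. lyrata, 25535 and 30024 in A. halleri, 34387 and 33078 in the lyrata hybrid and 27756 and 21463 in the halleri hybrid. Both A. lyrata arrays lay above all others. It was 2.43-fold higher there than in A. thaliana (log2 1.28 ± 0.31 SE, adjusted p = 0.0101), and not called in the other comparisons. The call in A. lyrata was lost on the spike-in scale and with quantile normalization. psbD, for the partner protein D2, gave 611 and 4003 in A. thaliana, 2978 and 3162 in A. lyrata, 4817 and 3501 in A. halleri, 1322 and 1806 in the lyrata hybrid and 5204 and 7159 in the halleri hybrid. The halleri hybrid was above all other arrays, but with the wide spread in A. thaliana no comparison of psbD was called.

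The core antenna genes psbB and psbC separated the hybrids. psbB, for CP47, gave 2666 and 3127 in A. thaliana, 9514 and 9906 in A. lyrata, 5456 and 4871 in A. halleri, 2204 and 2471 in the lyrata hybrid and 6433 and 6863 in the halleri hybrid. The 5 groups did not overlap, and the lyrata hybrid lay below both of its parents and the halleri hybrid above both of its own. Neither hybrid was called against both parents, and the halleri hybrid differed from A. halleri by 0.37 ± 0.22 (log2, adjusted p = 0.289). Compared with A. thaliana, psbB was 3.35-fold higher in A. lyrata (adjusted p = 0.000454), 1.78-fold in A. halleri (0.0164) and 2.3-fold in the halleri hybrid (0.0168), and in the lyrata hybrid its log2 difference was -0.31 ± 0.22 (0.404). Its signal was 4.15-fold lower in the lyrata hybrid than in A. lyrata (adjusted p = 0.000498). Set against the mean of their parents' log2 levels, the 2 hybrids deviated in opposite directions. The difference between these deviations was called for psbB alone among the 35 genes, against 0.756% of all probe sets. The A. thaliana level cancels out of this difference, so leaving out 1 of its arrays alters the spread but not the difference. The class block moves the difference by part of the gap between the A. thaliana arrays. For the settings that follow the share of all probe sets called was not counted. With the class block 11 genes were called, without either A. thaliana array 8, and without any 1 hybrid array 0. psbC, for CP43, gave 7703 and 8134 in A. thaliana, 5331 and 6327 in A. lyrata, 11804 and 10124 in A. halleri, 7011 and 6242 in the lyrata hybrid and 14672 and 14667 in the halleri hybrid. Here A. lyrata and its hybrid overlapped at the low end, below A. thaliana, A. halleri and the halleri hybrid in that order. The called differences of psbC were those between A. halleri and A. lyrata (1.88-fold) and between the hybrids (2.22-fold, adjusted p = 0.0293), both with the halleri side higher. The former was lost with the class block and without any 1 array of A. lyrata, A. halleri or the halleri hybrid.

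Cytochrome b559 and the small subunits made next to it followed another order. psbE, for its alpha subunit, gave 1327 and 3768 in A. thaliana, 14479 and 14597 in A. lyrata, 26469 and 22306 in A. halleri, 2285 and 4000 in the lyrata hybrid and 9099 and 8671 in the halleri hybrid. The lyrata hybrid overlapped with A. thaliana and the halleri hybrid stood alone between A. thaliana and A. halleri. psbE was 6.47-fold higher in A. lyrata than in A. thaliana (adjusted p = 0.00156), 10.8-fold in A. halleri (0.000543) and 3.96-fold in the halleri hybrid (0.0332). The last call was lost without any 1 array of A. lyrata, A. halleri or the halleri hybrid, and the difference was 1.24 (log2) against A. thaliana replicate 2 alone and 2.73 against replicate 1 alone. psbF, for the beta subunit, was at 7397 ± 1596 for A. thaliana (SD, n = 2), 41261 ± 928 for A. lyrata, 47896 ± 873 for A. halleri, 8390 ± 2245 for the lyrata hybrid and 19056 ± 2383 in the halleri hybrid. psbJ and psbL, small subunits at the edge of the reaction centre, had the same order of means in A. thaliana, the lyrata hybrid and the halleri hybrid, with 4167, 6703 and 9564 for psbJ and 2545, 2958 and 4016 for psbL. Both species were far above them, with 25810 ± 2.15 and 23351 ± 4151 for psbJ and 11905 ± 395 and 11252 ± 2079 for psbL. All 4 genes of this cluster were called higher in both species than in A. thaliana, by 4.47- to 10.8-fold.

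Of the other small subunits of photosystem II, psbT had the largest difference between A. lyrata and A. thaliana, and psbH, psbM and psbZ had no call. psbT, which encodes a small subunit at the dimer interface, gave 2773 and 1365 in A. thaliana, 28808 and 18486 in A. lyrata, 26188 and 18765 in A. halleri, 1078 and 1576 in the lyrata hybrid and 4131 and 2795 in the halleri hybrid. Both species lay above A. thaliana and both hybrids without overlap. The difference from A. thaliana was 11.8-fold in A. lyrata (3.56 ± 0.40, adjusted p = 0.00025) and 11.3-fold in A. halleri (0.000311). psbN, an assembly factor of photosystem II in tobacco, was at 447 ± 164 for A. thaliana, 2941 ± 415 for A. lyrata, 3505 ± 817 for A. halleri, 529 ± 61.2 in the lyrata hybrid and 1025 ± 311 in the halleri hybrid. It was 6.65-fold higher in A. lyrata and 7.85-fold higher in A. halleri than in A. thaliana.

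psbK and psbI, 2 more small subunits whose genes are neighbours, went apart in A. halleri. psbK gave 7949 and 15502 in A. thaliana, 45203 and 37349 in A. lyrata, 69538 and 70011 in A. halleri, 27855 and 29617 in the lyrata hybrid and 25654 and 25974 in the halleri hybrid. psbI gave 11099 and 9432 in A. thaliana, 29134 and 28654 in A. lyrata, 16149 and 12798 in A. halleri, 17371 and 19270 in the lyrata hybrid and 13835 and 15037 in the halleri hybrid. psbK was thus highest in A. halleri and psbI in A. lyrata, with no overlap with other groups. psbK was 6.28-fold higher in A. halleri than in A. thaliana (adjusted p = 0.000402), where psbI was not called (1.4-fold, 0.128), and psbI was 2.01-fold lower in A. halleri than in A. lyrata (0.0208), a call lost without any 1 array of these species. No comparison was called for psbH, psbM or psbZ, whose group means ran from 5403 to 14519, from 27815 to 51938 and from 8515 to 16572. The A. thaliana arrays of psbH and psbM were 3.26-fold and 1.98-fold apart.

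In photosystem I, psaB differed between groups with little spread and psaA with a large one. psaA and psaB encode the reaction-centre heterodimer. psaB gave 18765 and 22074 in A. thaliana, 76974 and 88239 in A. lyrata, 62676 and 61636 in A. halleri, 44982 and 38793 in the lyrata hybrid and 33037 and 37935 in the halleri hybrid. The groups did not overlap, and both hybrids lay between their parents. psaB was 4.05-fold higher in A. lyrata than in A. thaliana (adjusted p = 0.000407), 3.05-fold in A. halleri (0.00138) and 2.05-fold in the lyrata hybrid (0.0292). The last call was lost without any 1 hybrid array or A. halleri replicate 1. The calls of psaB in A. lyrata and A. halleri were lost on the spike-in scale and with quantile normalization. psaA gave 352 and 14067 in A. thaliana, 23715 and 19992 in A. lyrata, 33495 and 24120 in A. halleri, 5496 and 8951 in the lyrata hybrid and 16284 and 19088 in the halleri hybrid. Its A. thaliana arrays enclosed those of the lyrata hybrid, and both species lay above A. thaliana. The fold of 12.6 in A. halleri against A. thaliana (3.66 ± 1.23, adjusted p = 0.0402) was 1.01 (log2) against replicate 2 alone and 6.30 against replicate 1 alone, called in both fits. It was not called on the spike-in scale, with quantile normalization, or without any 1 array of another group. psaA was not called in A. lyrata (adjusted p = 0.0559).

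psaC, the iron-sulfur protein that hands electrons to ferredoxin, was brightest in the halleri hybrid, at 3910 ± 949 against 1385 ± 378 in A. thaliana, 2085 ± 5.01 in A. halleri, 2324 ± 54.3 in A. lyrata and 1680 ± 172 in the lyrata hybrid. The halleri hybrid was 2.82-fold above A. thaliana (adjusted p = 0.0165) and 1.84-fold above A. halleri, which missed the threshold (0.0603). The small subunit gene psaI was at 7765 ± 4629 for A. thaliana, 24097 ± 1208 for A. lyrata, 27973 ± 934 for A. halleri, 5100 ± 1110 in the lyrata hybrid and 12603 ± 2113 in the halleri hybrid. It was called higher in both species. psaJ, another small subunit, was at 24553 to 47271 in group means and was not called in any comparison.

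The assembly gene ycf3 had the largest difference between species of all 35 genes. ycf3, which encodes a chaperone needed to build photosystem I, gave 156 and 240 in A. thaliana, 13485 and 13079 in A. lyrata, 9629 and 10814 in A. halleri, 282 and 180 in the lyrata hybrid and 639 and 603 in the halleri hybrid. The lyrata hybrid overlapped with A. thaliana, the halleri hybrid lay above both, and both species were far above all of these. Against A. thaliana it was 65.4-fold higher in A. lyrata (6.03 ± 0.30, adjusted p = 5.81e-06), 50.2-fold in A. halleri (5.65 ± 0.30, 5.05e-06) and 3.1-fold in the halleri hybrid (0.0159). In the lyrata hybrid the log2 difference from A. thaliana was 0.21 ± 0.30 (adjusted p = 0.69). Each hybrid was below its other parent, the lyrata hybrid by 56.6-fold (8.08e-06) and the halleri hybrid by 16.2-fold (adjusted p = 0.0001). ycf4, for another photosystem I assembly protein, gave 1138 and 4968 in A. thaliana, 15311 and 11616 in A. lyrata, 18882 and 12846 in A. halleri, 3369 and 4632 in the lyrata hybrid and 10421 and 9894 in the halleri hybrid. The lyrata hybrid lay within the range of A. thaliana, while the halleri hybrid was between A. thaliana and A. halleri. Of its comparisons those of A. lyrata (5.59-fold, 0.00674) and A. halleri (6.52-fold, adjusted p = 0.00509) with A. thaliana were called.

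In the cytochrome b6f complex the small subunit gene petG stood apart from the large subunits. petG, which is needed for a stable complex in Chlamydomonas and tobacco, gave 535 and 240 in A. thaliana, 9220 and 8911 in A. lyrata, 9511 and 10052 in A. halleri, 364 and 430 in the lyrata hybrid and 1195 and 735 in the halleri hybrid. The lyrata hybrid lay inside the range of A. thaliana, and both species were far above. The difference from A. thaliana was 24.6-fold in A. lyrata (4.62 ± 0.38, adjusted p = 5.17e-05) and 26.6-fold in A. halleri (4.73 ± 0.38, 5.5e-05), while the lyrata hybrid was 22.4-fold below A. lyrata (0.000159) and the halleri hybrid 10.3-fold below A. halleri (0.000711). petB, for cytochrome b6, gave 14554 and 24035 in A. thaliana, 34533 and 41856 in A. lyrata, 47349 and 43525 in A. halleri, 36257 and 37803 in the lyrata hybrid and 34987 and 35433 in the halleri hybrid. All arrays of the other groups lay above both of A. thaliana. petB was called in the species only, 2.03-fold in A. lyrata (adjusted p = 0.0183) and 2.43-fold in A. halleri (0.00779), and the lyrata hybrid missed the threshold (1.98-fold, 0.0549). In A. lyrata petB was called lower than in A. thaliana after spike-in scaling and was not called with the class block.

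petA, for cytochrome f, and petD, for subunit IV, were called higher in both species, by 1.84- and 2.27-fold for petA and by 3.68- and 2.92-fold for petD. After spike-in scaling petA was called lower in A. lyrata than in A. thaliana. Their means in A. thaliana, A. lyrata, A. halleri, the lyrata hybrid and the halleri hybrid were 11428, 20865, 25760, 14726 and 20419 for petA and 155, 585, 475, 215 and 310 for petD. For both genes the hybrids thus lay between the means of their parents. The small subunit genes petL and petN were not called anywhere. petL, next to petG in the genome, was at 5485 ± 3382 in A. thaliana, 3704 ± 595 in A. lyrata and 4797 ± 669 in A. halleri, where petG differed by over 24-fold.

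Of the ATP synthase genes, atpA (alpha), atpB (beta) and atpE (epsilon) of the catalytic head and atpF of the membrane part had their highest means in A. lyrata, and atpH (the c ring) and atpI (subunit a) in A. halleri. Between these species only atpI was called. atpB gave 34014 and 32659 in A. thaliana, 113228 and 143943 in A. lyrata, 90700 and 105220 in A. halleri, 61657 and 64886 in the lyrata hybrid and 53656 and 59443 in the halleri hybrid. The groups did not overlap, with A. thaliana lowest and the hybrids between their parents. atpB was 3.83-fold higher in A. lyrata than in A. thaliana (adjusted p = 0.000561), 2.93-fold in A. halleri (0.00198) and 1.9-fold in the lyrata hybrid (0.0479), where the direction turned with quantile normalization (-0.14) and the call held without A. thaliana replicate 1 but not without any 1 other array. atpA was 4.72-fold and 2.94-fold higher in A. lyrata and A. halleri, and atpE 2.97-fold and 2.15-fold. The calls of atpA, atpB and atpE in both species were lost on the spike-in scale and with quantile normalization.

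atpI gave 199 and 247 in A. thaliana, 918 and 650 in A. lyrata, 2538 and 2028 in A. halleri, 140 and 154 in the lyrata hybrid and 701 and 767 in the halleri hybrid. The lyrata hybrid lay below both parents, though not called against A. thaliana (-0.57 ± 0.29, adjusted p = 0.236), and the halleri hybrid between its own. Relative to A. thaliana, atpI was 9.86-fold higher in A. halleri (adjusted p = 9.04e-05) and 3.38-fold in A. lyrata (0.00165). It was 2.91-fold higher in A. halleri than in its relative A. lyrata (adjusted p = 0.00789), a call lost without A. lyrata replicate 2 or A. halleri replicate 1, and 4.76-fold higher in the halleri hybrid than in the lyrata hybrid (0.00433). atpH gave 1539 and 7451 in A. thaliana, 7542 and 5435 in A. lyrata, 24805 and 22519 in A. halleri, 3433 and 4077 in the lyrata hybrid and 15617 and 18656 in the halleri hybrid. A. halleri and its hybrid lay above every array of the other groups. atpH was 6.96-fold higher in A. halleri than in A. thaliana (adjusted p = 0.00498) and 5.02-fold in the halleri hybrid (0.0443), the latter with log2 differences of 1.19 and 3.46 against A. thaliana replicates 2 and 1 alone, and its call was lost without any 1 array of another group. atpF, for a stalk subunit of the membrane part, was at 7764 ± 903 for A. thaliana, 21600 ± 5462 for A. lyrata, 15494 ± 6875 for A. halleri, 6237 ± 1100 in the lyrata hybrid and 15059 ± 261 in the halleri hybrid. It was called higher in A. lyrata (2.74-fold) and lower in the lyrata hybrid than in A. lyrata (3.43-fold).

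rbcL, the large subunit of the CO2-fixing enzyme Rubisco, differed little between the species and more in the halleri hybrid. It gave 2484 and 2482 in A. thaliana, 2378 and 3261 in A. lyrata, 1842 and 2083 in A. halleri, 2436 and 2376 in the lyrata hybrid and 4901 and 5487 in the halleri hybrid. Both halleri hybrid arrays lay above all 8 others. rbcL was 2.08-fold higher there than in A. thaliana (adjusted p = 0.0351), 2.64-fold higher than in A. halleri (0.00608) and 2.15-fold higher than in the lyrata hybrid (0.0436). Its differences between species were 0.17 ± 0.24 in A. lyrata and -0.34 ± 0.24 in A. halleri against A. thaliana (log2), with adjusted p of 0.602 and 0.28. After spike-in scaling rbcL was called lower in both species.

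A. halleri and A. lyrata differed from each other in few of these genes. atpI and psbC were higher in A. halleri and psbB and psbI lower, so that 2 of 35 genes (5.71%) were called in each direction, against 8.13% of all probe sets higher and 7.38% lower. These shares are near the background. The median log2 difference was 0.11, against -0.03 for all. After spike-in scaling atpH, atpI, psbC and psbK were higher (4 genes) and none lower, against 17.1% and 3.03% of all probe sets. The class block, which shifts this comparison by the gap between the A. thaliana arrays, gave 8 higher and 2 lower, against 6.05% and 5.78%. The higher count was 0 without A. lyrata replicate 2 or A. halleri replicate 1, 1 without A. lyrata replicate 1, A. halleri replicate 2 or either array of the halleri hybrid, and 5 without either A. thaliana array. The lower count was 0 without any 1 of the A. lyrata or A. halleri arrays.

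The lyrata hybrid differed from A. lyrata in many of these genes and from A. thaliana in few. Compared with A. lyrata, 16 genes were called lower and 0 higher, against 10.2% and 10.3% of all probe sets, the median difference being -0.99 (log2) for these genes and -0.24 for all. Compared with A. thaliana, psbK, psaB, atpB and atpE were called higher and 0 genes lower, against 6.6% and 4.95%, with a median of 0.28 against 0.10 for all. psbK, the first of these, was 2.59-fold above A. thaliana (1.37 ± 0.32, adjusted p = 0.0259), not called without any 1 hybrid array. Of the 24 genes higher in A. lyrata than in A. thaliana, 14 were lower in the hybrid than in A. lyrata and not called against A. thaliana, among them ycf3, petG, psbT (17.6-fold below A. lyrata, 0.000297), psbN, psbF and psbE. Another 2, psaB and atpB, were called against both parents and lay between them, psbK and atpE were called against A. thaliana alone, and 6 were called against neither. The same split over all probe sets was not counted, so it is a description. A missing call against A. thaliana, whose replicates differed most, does not show an equal level.

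With spike-in scaling 10 genes were lower and 7 higher in the lyrata hybrid than in A. lyrata, against 1.03% and 32.5% of all probe sets. Among them ycf3, petG and psbT stayed lower. Compared with A. thaliana 0 were higher and 7 lower, against 2.17% and 25.6%. The class block gave 22 genes below A. lyrata, against 15.5% of all probe sets. It gave 8 above and 2 below A. thaliana, against 12% and 9.41%. The 16 lower calls were 10 without replicate 1 of this hybrid and 22 without A. thaliana replicate 1. The 4 higher calls against A. thaliana were 0 without any 1 hybrid array of either cross, 1 without A. halleri replicate 1, 2 without either A. lyrata array or A. halleri replicate 2, 8 without A. thaliana replicate 1 and 10 without replicate 2. With those A. thaliana arrays left out, 2 and 1 genes were lower.

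All 35 genes had a higher fitted level in the halleri hybrid than in A. thaliana, with differences of 0.44 to 2.97 (log2) and a median of 1.06, compared with 0.13 over all probe sets. Of these, 9 were called (25.7%), against 4% of all probe sets higher and 2% lower. They were atpH, psbE, atpI, ycf3, psaC, psbF, psbB, psbJ and rbcL. atpI was 3.21-fold higher (1.68 ± 0.29, adjusted p = 0.0132). Compared with A. halleri, 9 genes were lower and 1, rbcL, higher, against 6.3% and 8.76% of all probe sets. The largest lower differences were those of ycf3, petG and psbT (6.51-fold, adjusted p = 0.00322), the 3 genes that also led in the lyrata hybrid against A. lyrata. Of the 22 genes higher in A. halleri than in A. thaliana, atpI, ycf3, psbJ and psbF were called against both parents and lay between them. For psbK, psbL, petG, psbT and psbN the hybrid was called only against A. halleri, for atpH, psbE and psbB only against A. thaliana, and for 10 genes against neither. This split too was not counted over all probe sets. Both hybrid arrays lay above all 4 parental arrays for psbM, psbD, psbC, psbZ, rbcL, psbB, psbH and psaC, and of these only rbcL was called against both parents. The share of all probe sets with this order was not counted, so the list is a description.

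Spike-in scaling left atpI, psaC and ycf3 higher in the halleri hybrid than in A. thaliana, against 2.78% of all probe sets. Compared with A. halleri it gave 11 genes higher, against 34.7%, and 3, namely ycf3, petG and psbT, lower, against 0.654%. The class block gave 19 genes above A. thaliana, against 4.64% of all probe sets. It gave 4 above and 13 below A. halleri, against 12.3% and 11.2%. The 9 higher calls against A. thaliana were 0 without either array of this hybrid, 18 without A. thaliana replicate 1 and 19 without replicate 2. The 9 lower calls against A. halleri were 3 without A. halleri replicate 1 or hybrid replicate 2 and 4 without hybrid replicate 1. The call of rbcL was lost without hybrid replicate 2 (adjusted p = 0.0637), and 4 genes were higher than in A. halleri without either A. thaliana array.

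The position of a hybrid between its parents was set out for genes at least 4-fold apart between them, as the percentage of the log2 distance from A. thaliana to the other parent that the hybrid had covered. The choice uses the parents' values, so the positions are a description. In the lyrata hybrid the median position of 12 such genes was 13.2%, from -16.1% for psbT to 51.4% for psaB, and 10 of the 12 were below 50%. petG was at 2.95%, ycf3 at 3.45% and psbF at 6.9%. In the halleri hybrid 13 genes had a median of 48.3%, from 22.9% for psbT to 83.2% for atpH, with petG at 28.8% and ycf3 at 28.9%. All probe sets as far apart and higher in the relative than in A. thaliana had medians of 50.5% (1966 probe sets) and 55.7% (1695) in these hybrids. psbT, petG and ycf3 were thus at the A. thaliana end of these genes in both crosses.

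**Figure D3:**
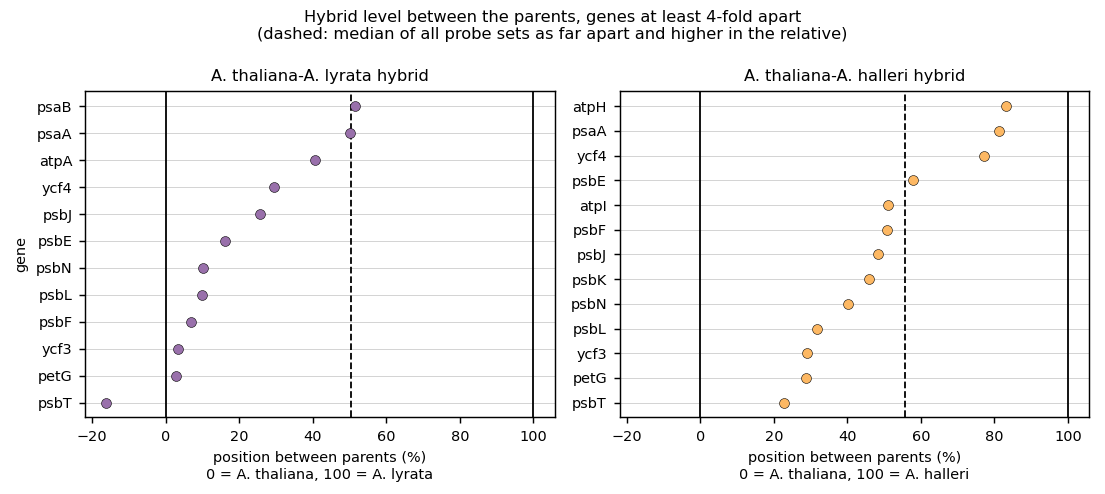
Position of each hybrid between its parents for genes at least 4-fold apart, as a percentage of the log2 distance from A. thaliana to the other parent, with 1 point per gene. The dashed lines mark the medians of all probe sets as far apart and higher in the relative, 50.5% and 55.7%, and 10 of 12 genes in the lyrata hybrid are below 50%.

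Set against each other, the halleri hybrid had the higher signals. Its median log2 difference from the lyrata hybrid was 1.1, compared with 0.02 over all probe sets, and 27 of the 35 fitted differences were above 0. Called higher were atpI, psbB, ycf3, psbC and rbcL, 14.3% of the genes against 1.93% of all probe sets, and 0 were lower, against 0.72%. psbB was 2.84-fold higher (adjusted p = 0.00883) and ycf3 2.68-fold (1.42 ± 0.30, 0.0358), the latter not called without any 1 array outside A. thaliana. The call of psbB was lost without replicate 1 of the lyrata hybrid or either array of the halleri hybrid, and that of atpI without replicate 1 of the lyrata hybrid or replicate 2 of the halleri hybrid. The hybrids lie in different scale classes. With the class as a block 10 genes were higher, against 4.51% of all probe sets, psbB and ycf3 among them, but psbC and rbcL not. That block adds the gap between the A. thaliana arrays to each difference, so it is no check of a scale effect between the hybrids. On the spike-in scale 17 were higher and 0 lower, against 6.94% and 0.448% of all probe sets. The count was 17 without either A. thaliana array, 0 without replicate 1 of the lyrata hybrid or replicate 2 of the halleri hybrid, 1 without replicate 1 of the halleri hybrid, and 2 without replicate 2 of the lyrata hybrid or any 1 array of A. lyrata or A. halleri.

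Genes that lie side by side in the chloroplast genome did not share a single difference. In the gene table of the TAIR10.1 assembly, used here for order alone, psbB, psbT, psbN, psbH, petB and petD follow each other. Their log2 differences in A. lyrata against A. thaliana were 1.75, 3.56, 2.73, 0.17, 1.02 and 1.88. In A. halleri they were 0.83, 3.50, 2.97, 1.23, 1.28 and 1.55, so that psbT and psbN led this block in both species. The neighbours psbJ, psbL, psbF and psbE were close together in A. lyrata (2.63, 2.25, 2.50 and 2.69), while petL and petG, which follow, were at -0.42 and 4.62. In the block psaB, psaA, ycf3 the differences were 2.02, 3.27 and 6.03. Over 26 neighbouring pairs the median absolute gap in log2 difference was 0.85 in A. lyrata and 0.88 in A. halleri against A. thaliana, compared with 1.13 and 1.28 over all 595 pairs of the 35 genes. In the halleri hybrid against A. thaliana the order was the opposite, with 0.63 for neighbours and 0.46 for all pairs. These gaps are descriptions, since pairs share genes and arrays.

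**Figure D4:**
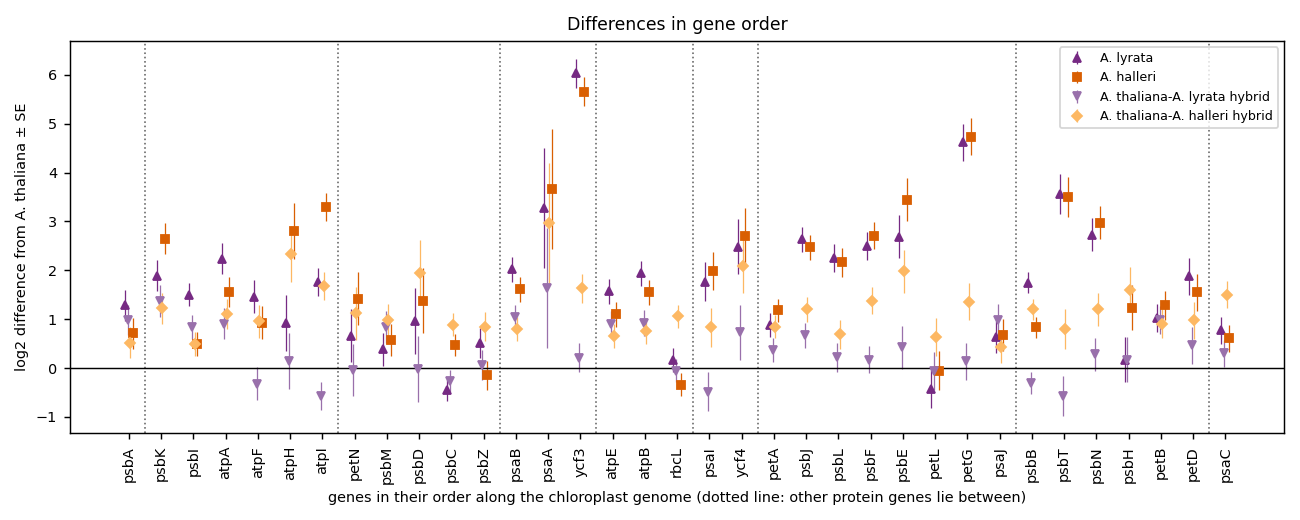
Log2 difference from A. thaliana with SE for A. lyrata, A. halleri and both hybrids, with the genes in their order along the chloroplast genome and dotted lines where other protein genes lie between. psbJ, psbL, psbF and psbE form a plateau near 2.5 in A. lyrata, whereas petL and petG beside each other are at -0.42 and 4.62.

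Of the 35 genes, 7 were called in none of the 8 comparisons. They were petN, psbM, psbD, psbZ, petL, psaJ and psbH, and psbC and rbcL were likewise not called in either species against A. thaliana. These 9 were the genes with no call in A. lyrata or A. halleri against A. thaliana. All 35 genes reached the filter signal of 104 in every group, so no gene was left out of a test.

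Other chloroplast-encoded genes were also measured. Of 9 tested genes of the NDH complex, which returns electrons from ferredoxin to plastoquinone, 3 were higher and 2 lower in A. lyrata than in A. thaliana, and the same counts held in A. halleri, with medians of 0.27 and 0.21. Ribosomal protein genes (15 measured of 21) had 12 higher and 2 lower calls in A. lyrata, with a median of 1.80, and 10 and 2 in A. halleri, with a median of 1.63. Of the 4 RNA polymerase genes 2 were higher and 0 lower in each (1.26 and 1.02). rpoB had means of 77.1, 5853, 4886, 85.7 and 176 in A. thaliana, A. lyrata, A. halleri, the lyrata hybrid and the halleri hybrid. Its called differences from A. thaliana were 6.64 ± 0.70 in A. lyrata and 6.42 ± 0.70 in A. halleri (log2). The A. thaliana arrays of rpoB gave 12.5 and 142. Its means in A. thaliana and the lyrata hybrid were below the filter signal of 104. The size of both differences thus depends on low, widely spread A. thaliana signals and on the offset. Of 9 tested mitochondrial genes 4 were higher in A. lyrata and 5 in A. halleri and 0 lower. As background, calls against A. thaliana over the whole array were 25.8% (higher) and 17.2% (lower) for A. lyrata. For A. halleri they were 23.5% and 16.2%. The NDH counts were close to these shares, while the ribosomal protein genes had more higher calls. Differences of these lists from the background or from the 35 genes were not tested. These lists and the nuclear ones below were counted on the trimmed-mean scale alone.

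On the trimmed-mean scale 4 of the 5 measured nuclear genes for subunits of the same complexes were also called higher in the relatives. Only 5 of 40 on the list had a named probe set: PSAN and PSBW and PSBY, small subunits of photosystems I and II, and ATPC1 and ATPC2, for the gamma subunit of the ATP synthase. All but ATPC2 were called higher in A. lyrata and in A. halleri than in A. thaliana and in the lyrata hybrid than in A. thaliana. PSAN gave 20650 and 11355 in A. thaliana, 99591 and 101653 in A. lyrata, 54900 and 62876 in A. halleri 40821 and 29607 in the lyrata hybrid and 31962 and 31317 in the halleri hybrid. All these groups lay above A. thaliana, with called log2 differences of 2.72 ± 0.32 in A. lyrata, 1.94 ± 0.32 in A. halleri and 1.18 ± 0.32 in the lyrata hybrid (adjusted p = 0.000323, 0.00194 and 0.0439). PSBY was 2.32 ± 0.26 and 2.08 ± 0.26 higher in the species and 1.46 ± 0.26 in the lyrata hybrid, and was the only gene of this list called in the halleri hybrid against A. thaliana (1.12 ± 0.26, adjusted p = 0.0374).

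The light-harvesting and assembly genes of the nucleus were mixed. LHCB4.1, LHCB4.2 and LHCB4.3, minor antenna proteins of photosystem II, were 3 of 20 listed genes with a probe set. LHCB4.3 was lower in both species than in A. thaliana (-1.14 ± 0.37 and -1.59 ± 0.37), LHCB4.2 was higher in A. halleri (adjusted p = 0.0168), both LHCB4.1 and LHCB4.2 were higher in the lyrata hybrid, and LHCB4.1 in the halleri hybrid as well (1.19 ± 0.28, adjusted p = 0.0374). Among 4 of 19 factors for chloroplast RNA and assembly, PAM68, needed for photosystem II assembly, was higher in A. lyrata (3.03 ± 0.33), A. halleri (2.81 ± 0.33), the lyrata hybrid (1.83 ± 0.33) and the halleri hybrid (1.93 ± 0.33) than in A. thaliana. HCF101, needed for iron-sulfur clusters of photosystem I, was higher in A. lyrata (1.60 ± 0.29) and the lyrata hybrid (1.14 ± 0.29), and LPA1 and LPA2 were not called. None of the 16 listed nuclear genes for chloroplast transcription had a named probe set.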

How the data were processed

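The deposited values are intensity values, 1 linear signal per probe set and array, for which the submitters' processing notes name GCOS and MAS5 without a version. Per the labels, biotin-labelled cRNA came from 500 ng of total RNA. Trimmed means were 500 on 5 arrays and 24.3 to 136 on the others, and all were brought to a common 2% trimmed mean (500). The number of arrays sets the precision. After removal of 64 controls from 22810 probe sets, 16656 were tested, namely those whose mean log2 signal reached the 40th percentile (signal 104) in at least 1 group. Tests used R 4.3.3 and limma 3.58.1 (lmFit, eBayes with trend) on log2 values of signal plus 9.24 (10th percentile of all values), over all 10 arrays (residual df 5, prior df 4.72), with Benjamini-Hochberg adjustment within each of 8 comparisons. The procedure was tested on simulated data. An adjusted p value sets a difference against the spread between biological replicates as labelled, pooled over all groups for each probe set. Replicates of A. thaliana differed more (median absolute log2 difference 0.65 over all probe sets tested) than those of the other groups (0.30 to 0.40). The pooled error can thus be too small for comparisons with A. thaliana and too large for the others. Leaving out 1 A. thaliana array takes its spread out of the pooled error, so counts from those fits cannot show how firm the calls are.

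The 35 genes and all lists were chosen with earlier results of these data known. Gene names came from a platform table (13513 probe sets with 1 gene, 503 with several) and the TAIR10.1 gene table. Values on every array are printed for 9 fixed genes and for the 3 largest called differences per direction and comparison with arrays that do not overlap; list genes are the called ones with the lowest adjusted p, at most 3 a list. Alternatives were spike-in scaling, quantile normalization, another offset, other filters, replicate and class blocks, plain probe identifiers, a threshold of 0.01 and leaving out each array. For the difference between the hybrids' deviations they were chosen after seeing the data.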

Additional observations from a re-analysis of the deposited data

Results flagged for a closer look

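psbB, for the photosystem II antenna protein CP47, deviated from the mean of its parents in opposite directions in the 2 hybrids. On the log2 scale the lyrata hybrid was at -1.18 and the halleri hybrid at 0.78 relative to the mean of the parents' log2 levels, a difference of -1.96 ± 0.25 SE (lyrata minus halleri) that passed in limma over all probe sets (adjusted p = 0.0111). Both arrays of each hybrid had the direction of their group. Of all probe sets 0.756% passed this test, and psbB was the only 1 of the 35 genes to do so, while 14 had an unadjusted p below 0.05. The share of all probe sets below that p, or passing under the settings that follow, was not counted. These counts of genes are thus descriptions. The A. thaliana level enters both deviations equally and cancels out of their difference. Without either A. thaliana array the difference of psbB thus stayed at -1.96, and only the estimate of the spread changed. The hybrids lie in different scale classes, but the class block moves the difference by part of the gap between the A. thaliana arrays. It is therefore no check of a scale effect. With the class as a block the difference of psbB was -2.08 (adjusted p = 0.00365) and 11 of the 35 genes passed, and with spike-in scaling it was -2.27 (0.0118) and 2 passed. Without any 1 hybrid array no gene passed, with adjusted p of 0.0533 to 0.128 for psbB, and without either A. thaliana array 8 genes passed.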

How the results depend on the processing

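Spike-in scaling moved most counts of called genes and also the shares of all probe sets called, which are given above. It gave 4 higher and 10 lower in A. lyrata against A. thaliana, 10 and 6 in A. halleri, 4 and 0 in A. halleri against A. lyrata, 0 and 7 in the lyrata hybrid against A. thaliana, 7 and 10 against A. lyrata, 3 higher in the halleri hybrid against A. thaliana, 11 and 3 against A. halleri, and 17 higher between the hybrids. Quantile normalization gave 15 and 1 in A. lyrata against A. thaliana, against 19.6% and 18.7% of all probe sets. In A. halleri it gave 15 and 0, against 17.6% and 17.1%. It gave 0 lower in A. halleri against A. lyrata (9.03% of all) and 0 higher in the lyrata hybrid against A. thaliana (4.35%). In this last comparison atpB turned to -0.14 (log2). The class block gave 8 higher in A. halleri against A. lyrata, 8 and 2 in the lyrata hybrid against A. thaliana, 19 higher in the halleri hybrid, 4 higher against A. halleri and 10 higher between the hybrids. The shares of all probe sets with this block are given above. At an adjusted p of 0.01 A. halleri against A. lyrata had 1 and 0, the lyrata and halleri hybrids 0 and 0 higher than A. thaliana, the halleri hybrid 5 lower than A. halleri and 2 higher than the lyrata hybrid. An offset of 1 left 2 and no filter 0 genes higher in the lyrata hybrid against A. thaliana, and the stricter filter gave 14 higher in the halleri hybrid against A. thaliana and 2 against A. halleri. The replicate numbers are not stated to mark a shared batch. With them as a replicate block 2 genes were higher in the lyrata hybrid than in A. thaliana and 3 between the hybrids, and 23 of 26 named differences stayed called. The cause of these shifts was not tested.

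Leaving out each array gave 20 to 27 higher and 0 to 1 lower in A. lyrata, 19 to 27 and 0 in A. halleri, and 0 to 5 and 0 to 2 between these species. The lyrata hybrid had 0 to 10 higher and 0 to 2 lower than A. thaliana and 10 to 22 lower than A. lyrata. The halleri hybrid had 0 to 19 higher than A. thaliana, 0 to 4 higher and 3 to 13 lower than A. halleri, and 0 to 17 higher than the lyrata hybrid. Where 1 array of a group was left, it was assumed to vary like the others. Of the 26 named differences, 11 kept direction and call under every setting, all of them of ycf3, petG or psbT.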
